A study of Mus musculus with 12 samples.

Results

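Cultured fibro/adipogenic progenitors (FAPs) that received the pA AMO, an oligonucleotide directed at the intronic polyadenylation site of Pdgfra, were compared with cells that received a control AMO. The members are arrays, chosen by their labels alone: 8 of the 12 arrays of the series, of which 4 are labelled pA AMO and 4 control AMO. Both AMOs were given without PDGF-AA (0 uM) and with PDGF-AA (written as 50 uM in the labels, whose unit could not be verified), which makes 4 groups of 2 arrays. The remaining 4 arrays received an AMO against a 5' splice site of Pdgfra (5'ss AMO), which the labels also place in an intron. All cells were wild-type FAPs from uninjured hindlimb muscle of male C57/Bl6 mice aged 8 to 12 weeks, grown for 2.5 days and then transfected with AMO at 10 µM on 2 occasions, each for 48 hours. PDGF-AA was added to its groups on the second occasion. Each replicate pooled cells of 2 mice, and 100 ng of total RNA was labelled for an Affymetrix Mouse Gene 1.0 ST array. The labels speak of pA AMOs in the plural and do not give their number or sequence.

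FAPs are resident mesenchymal cells of muscle; they carry the receptor PDGFRα and can become fibroblasts or adipocytes. PDGF-AA binds PDGFRα, a receptor tyrosine kinase, and the pathway is known for driving fibroblast growth and matrix production in injured muscle. Polyadenylation at a site inside an intron ends a transcript early; for a receptor such as PDGFRα this can give a protein without its kinase domain. The title of the series concerns this intronic polyadenylation and muscle fibrosis, and an AMO over the site is a means of hindering its use. AMO is the field's usual abbreviation for an antisense morpholino oligonucleotide.

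The deposited values are log2 intensities per transcript cluster, a group of probes for one transcript or part of one. Of the 35556 clusters, 21789 carry exactly 1 gene symbol and were tested. A difference is the log2 value with pA AMO minus that with control AMO, fitted with the PDGF-AA dose and the replicate number as further terms, and the 4 pairs of arrays of equal dose and replicate number give it 4 times. The array medians lay between 6.07 and 6.23. All 11 measured markers of FAPs and fibroblasts stood above the mark of 6.11, under which the dimmest 40 percent of clusters fall. So did 8 of 9 myogenic, 4 of 4 adipocyte and 2 of 6 macrophage and leukocyte markers. Above it were also 4 of 6 endothelial, 3 of 4 tendon, 2 of 4 smooth muscle and pericyte and 1 of 2 Schwann markers. The mean level of the 4 adipocyte markers was 6.32 to 7.02 on the 4 arrays numbered replicate 1 and 7.54 to 7.99 on the 4 numbered replicate 2, so that the replicate numbers differed in it more than the AMOs did. No label says what arrays of the same number share, so the 4 pairs may not be 4 independent repeats. The p-values rest on the spread between these arrays that is left after the AMO, dose and replicate terms of the fit. The limma test also draws the spread of each cluster towards that of all clusters. In the average over doses this borrowed part weighed 4.33 degrees of freedom, beside 4 from the arrays.

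The differences between pA AMO and control AMO were small: the median over all clusters was -0.01, 45.2% of clusters lay above 0, and 0 clusters differed by 1 log2 unit or more. In the limma test 0 of 21789 clusters (0%) passed an adjusted p of 0.05, and the smallest adjusted p was 0.538. An unadjusted p under 0.05 was reached by 1665 clusters (7.64%), of which 695 (3.19%) were higher and 970 (4.45%) lower with pA AMO. With an error estimate that follows the brightness of the clusters and is robust to outlying variances (trend and robust moderation), 44 clusters passed, 30 higher and 14 lower. They stand for 32 genes, with 10 of the clusters from Hmcn1. In that fit the part of the spread borrowed from all clusters weighed a median of 14.6 degrees of freedom.

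Pdgfra itself had the same level with both AMOs to within the error. With control AMO it stood at 12.75 and 12.75 without PDGF-AA (replicates 1 and 2) and at 12.75 and 12.78 with it; with pA AMO the values, in the same order, were 12.72, 12.80, 12.75 and 12.81. The groups overlapped, the average difference was 0.01 ± 0.05 (SE of the fit), and its 95 percent interval ran from -0.11 to 0.13. The array has 1 value for Pdgfra, which does not separate the transcript ended in the intron from the full-length one.

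Pdgfrb, the second PDGF receptor, differed by -0.01 ± 0.07 and Pdgfrl, a receptor-like gene without a kinase, by -0.09 ± 0.06. Among the ligands, Pdgfa differed by less than 0.01 in size (SE 0.06), Pdgfb by -0.09 ± 0.09 and Pdgfc by -0.09 ± 0.07. Pdgfd, a ligand that acts mainly through PDGFRβ, was higher with pA AMO in all 4 pairs. Its levels with control AMO were 8.18, 8.03, 8.49 and 8.41, and those with pA AMO 8.27, 8.31, 8.71 and 8.54, a difference of 0.18 ± 0.06 (adjusted p = 0.613, limma). The level of Pdgfd also lay higher on the PDGF-AA arrays of either AMO, so that the groups overlapped over both doses. Over all clusters, 1290 (5.92%) were higher in all 4 pairs and 1982 (9.10%) lower in all 4.

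The pathway downstream of the receptor showed differences of the same small size. Of 29 measured signal transducers, 14 were higher and 15 lower with a median of -0.01, and 0 reached an unadjusted p under 0.05, against 7.64% of all clusters. Without PDGF-AA 7 of the 29 were higher (median -0.04) and with it 19 of 29 (median 0.02). With PDGF-AA 3 of the 29 reached an unadjusted p under 0.05, against 13.2% of all clusters. For the difference between the doses 1 of the 29 did, against 8.81% of all clusters. The transducer with the smallest p was Rasa1, a GTPase-activating protein that binds activated PDGF receptors, at 0.19 ± 0.09. Of 25 immediate early and MAPK feedback genes, 9 were higher and 16 lower with a median of -0.02. Egr2, an early growth response transcription factor, was lower in all 4 pairs at -0.17 ± 0.07, and Spry2, a feedback inhibitor of receptor tyrosine kinases, differed by -0.14 ± 0.07. Of the 10 chromosomal neighbours of Pdgfra, 6 were higher, and 7 lay above the mark of 6.11. In all 4 pairs 4 of the 10 were higher, against 5.92% of all clusters, and 0 lower, against 9.10%. Chic2, at 0.20 ± 0.07, was 1 of these 4.

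The genes described next are the 12 clusters of smallest p in each direction that kept their sign in all 4 pairs and lay above the dim mark. Each has an adjusted p of 0.538 (limma), so none passed. For comparison, all 4 pA arrays lay above all 4 control arrays in 206 clusters (0.945%) and below them in 372 (1.71%). Of these 24 clusters, 14 were among the 44 that passed with trend and robust moderation. Array values are given throughout in the order 0 uM replicates 1 and 2, then 50 uM replicates 1 and 2.

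Akr1c18, a 20α-hydroxysteroid dehydrogenase that inactivates progesterone, stood at 10.32, 10.39, 10.11 and 10.14 with control AMO and at 10.64, 10.81, 10.56 and 10.69 with pA AMO. The pA arrays lay above all control arrays, and the difference was 0.44 ± 0.06. This was the smallest adjusted p with trend and robust moderation, 0.000104. Hsd3b6, a 3β-hydroxysteroid dehydrogenase, was higher by 0.83 ± 0.14, from 7.33, 6.32, 7.62 and 7.05 to 7.61, 7.25, 8.48 and 8.31. Its control arrays spread over more than 1 log2 unit, and the groups overlapped. Both enzymes belong to families of close copies, and probes may pick up more than 1 member.

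The chemokine Cxcl14 stood at 10.56, 10.17, 10.57 and 10.11 with control AMO and at 10.91, 10.63, 10.86 and 10.50 with pA AMO, a difference of 0.37 ± 0.06. Replicate 1 lay above replicate 2 in every group, and within a replicate number the pA arrays lay above the control arrays. It passed with trend and robust moderation at an adjusted p of 0.000248. Col12a1, a collagen that decorates the surface of collagen fibrils, stood at 9.76, 9.46, 9.60 and 9.42 against 9.97, 9.83, 10.04 and 9.71 with pA AMO, higher by 0.33 ± 0.06 in 4 of 4 pairs. Ccdc3, which encodes a secreted protein, was higher by 0.32 ± 0.06. Malat1, a long non-coding RNA kept in the nucleus, rested at 11.56 to 11.69 on the control arrays and at 11.91, 12.24, 11.99 and 12.32 on the pA arrays. Those groups did not overlap, and the difference was 0.47 ± 0.08. Replicate 2 gave the larger difference of Malat1 at both doses.

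Hmcn1 encodes hemicentin, a very large extracellular matrix protein, and filled the other 6 of the 12 higher places with 6 of its 77 clusters. The cluster with the smallest p, 10358533, stood at 6.65, 6.52, 6.43 and 6.56 with control AMO and at 6.98, 7.45, 7.38 and 7.49 with pA AMO, a difference of 0.79 ± 0.11 with no overlap. All 77 clusters lay above 0 on average, with a median of 0.38, and 43 were higher in all 4 pairs. The clusters are pieces of one gene on the same arrays and are not independent. The first replicate without PDGF-AA stood apart: the median over the 77 clusters was 0.05 in that pair and 0.45, 0.43 and 0.54 in the other three. The mean of the 5'ss AMO arrays minus that of the same control arrays had a median of 0.18 over the 77 clusters; both differences share the control arrays, so the second is no independent support of the first.

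**Figure D1:**
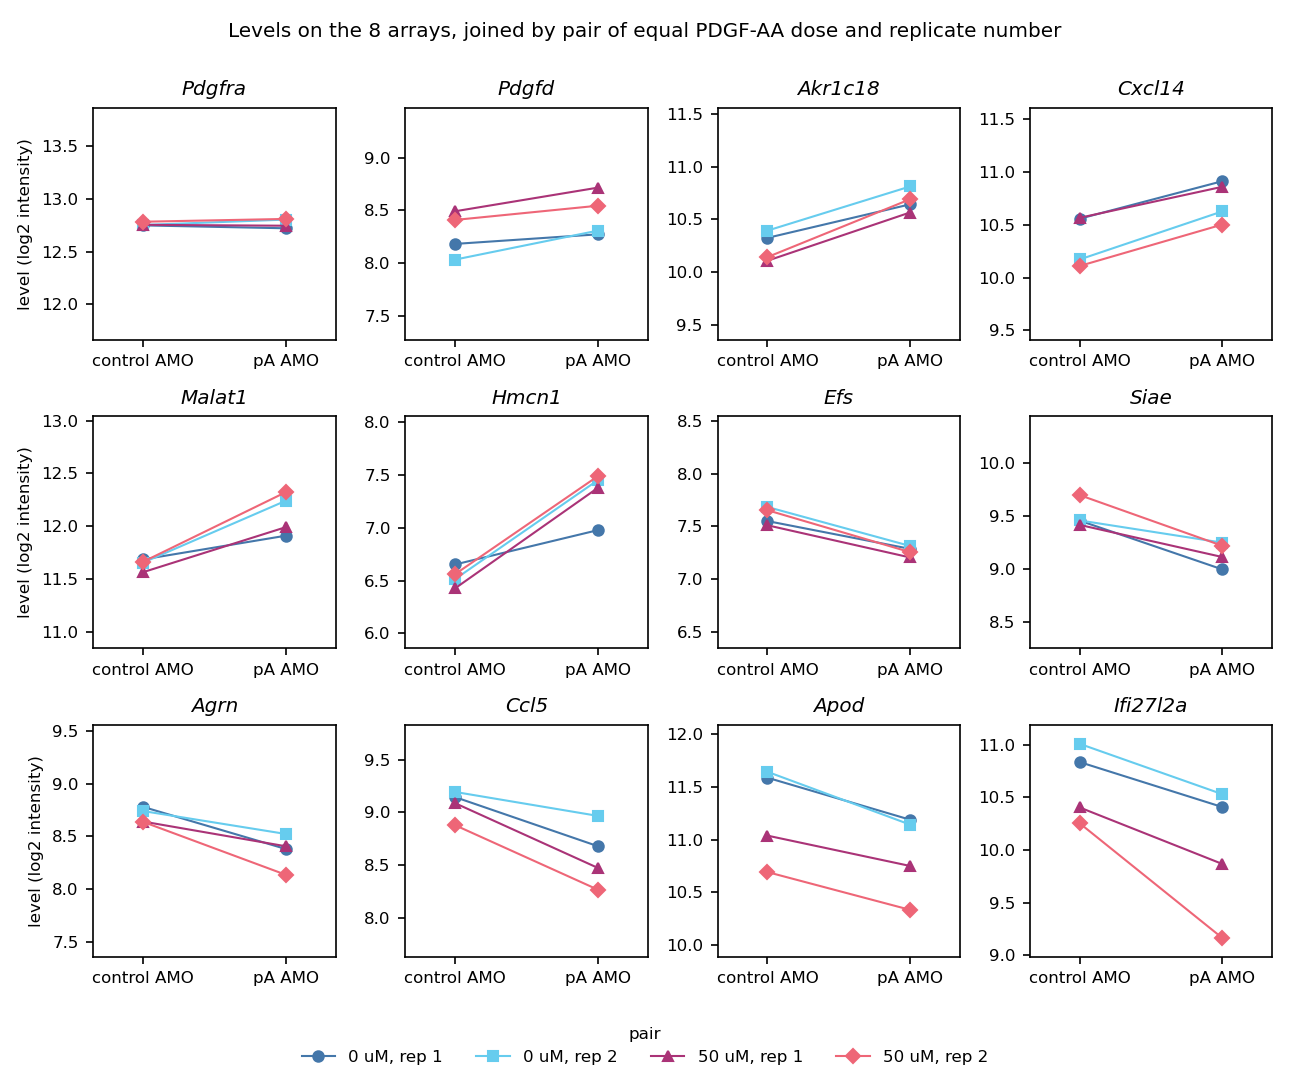
Log2 intensity of 12 genes (y axis, every panel spanning the same 2.2 log2 units) with control AMO and with pA AMO (x axis). Each symbol is an array, and a line joins the pair of equal PDGF-AA dose and replicate number; Pdgfra is flat at 12.72 to 12.81, while the lines of Akr1c18, Cxcl14, Malat1 and Hmcn1 (cluster 10358533) go up and those of Efs, Siae, Agrn, Ccl5, Apod and Ifi27l2a go down in all 4 pairs.

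Efs, an adaptor protein of Src family kinases and integrin signalling, had the smallest p among the lower genes. It stood at 7.55, 7.68, 7.51 and 7.65 with control AMO and at 7.29, 7.31, 7.21 and 7.26 with pA AMO, lower by 0.33 ± 0.05 with no overlap. Siae, which removes acetyl groups from sialic acids, stood at 9.46, 9.46, 9.42 and 9.70 against 9.00, 9.25, 9.11 and 9.22. The groups of Siae were apart too, and the difference was -0.36 ± 0.07. Agrn, the heparan sulfate proteoglycan agrin of basement membranes and the neuromuscular junction, went from 8.78, 8.74, 8.64 and 8.64 to 8.38, 8.52, 8.41 and 8.14, a difference of -0.34 ± 0.07 without overlap. The membrane-anchored protease Mmp23 was lower by 0.28 ± 0.05, with pair differences between -0.34 and -0.25.

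Ifi27l2a, an interferon-induced gene, had the largest difference of these 12 lower clusters. It stood at 10.83, 11.01, 10.40 and 10.25 with control AMO and at 10.41, 10.53, 9.87 and 9.17 with pA AMO, a difference of -0.63 ± 0.15. The pair with PDGF-AA numbered replicate 2 gave -1.09, more than the others, which gave -0.42 to -0.54. The chemokine Ccl5 stood at 9.14, 9.19, 9.09 and 8.88 against 8.68, 8.97, 8.47 and 8.27, and the difference was -0.48 ± 0.10. Apod, a lipocalin that carries small lipids, was at 11.59, 11.64, 11.04 and 10.69 against 11.19, 11.14, 10.75 and 10.33, a difference of -0.39 ± 0.09. Apod stood lower on the arrays with PDGF-AA than on those without it under either AMO, so that the AMO groups overlapped although each pair had the same sign. Among the dimmer lower genes, Sox18, an endothelial transcription factor, differed by -0.37 ± 0.08, Npr1, the receptor of atrial natriuretic peptide, by -0.28 ± 0.07 and the N-acetyltransferase Nat8f4 by -0.29 ± 0.06. Csrnp1 and Tceal6 were lower by 0.26 ± 0.05 and 0.35 ± 0.07.

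**Figure D2:**
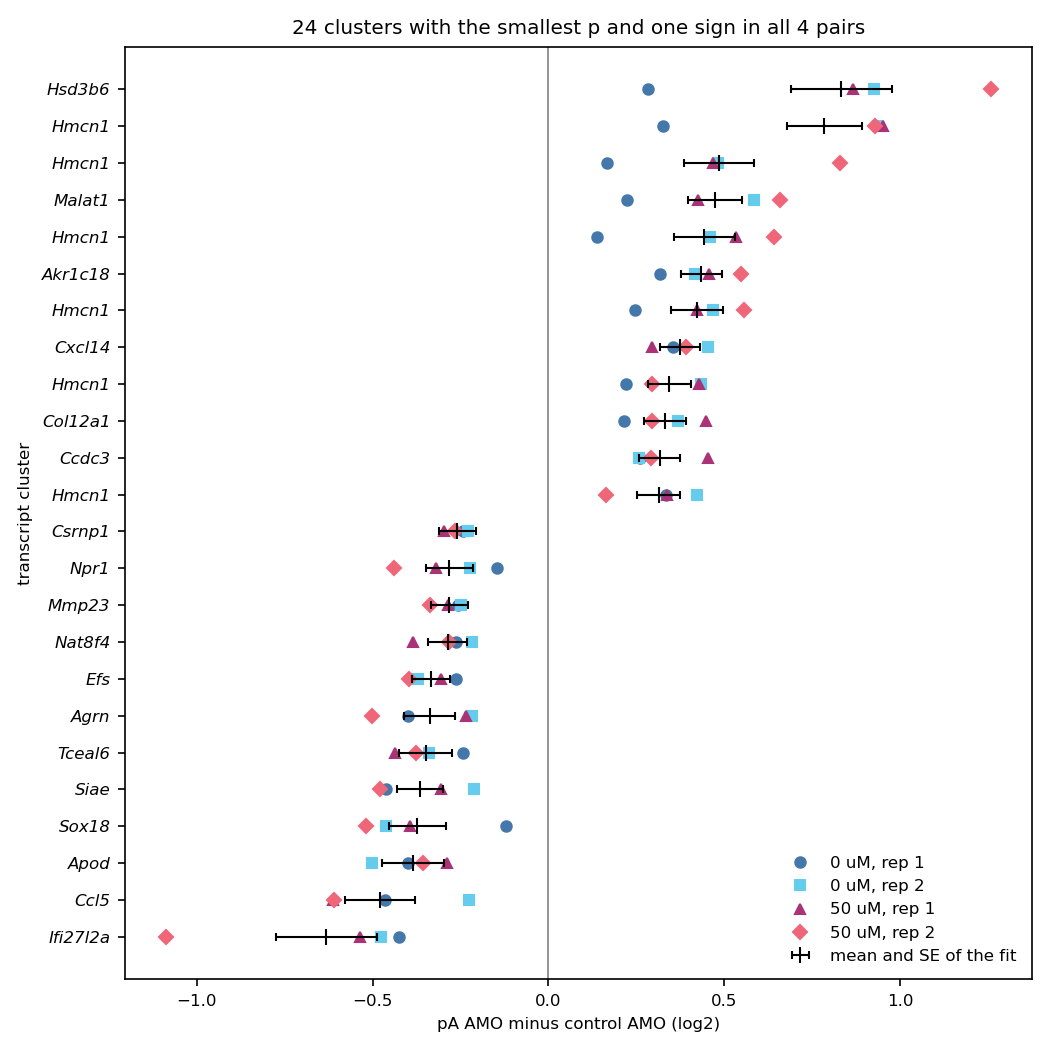
Difference between pA AMO and control AMO in log2 units (x axis) for the 24 clusters chosen by smallest p (y axis, by gene). Coloured symbols are the 4 pairs and the black bar is the fitted mean with its SE; the means run from -0.63 for Ifi27l2a to 0.83 for Hsd3b6, and the sign within a row is the same by the rule that chose the clusters.

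For the gene lists that follow, the values to set them against are those of all clusters, with a median of -0.01 and 45.2% above 0. By dose, the median over all clusters was -0.00015 without and -0.022 with PDGF-AA. By pair, 46.3% and 52.5% of clusters lay above 0 without PDGF-AA (replicates 1 and 2) and 47.5% and 44.5% with it. The markers of FAPs and fibroblasts lay on both sides of 0. Of 19 measured, 9 were higher and 10 lower with pA AMO, and the median was -0.01; none passed in the main test. Thy1, a surface glycoprotein of fibroblasts, stood at 8.63, 8.57, 8.58 and 8.42 with control AMO and at 8.80, 8.90, 8.97 and 8.75 with pA AMO. The pA arrays lay above all control arrays, with a difference of 0.31 ± 0.07. Fap, the fibroblast activation protein, a surface protease, lay lower with pA AMO in all 4 pairs. Its values were 8.23, 8.50, 8.15 and 8.78 against 7.51, 8.11, 7.98 and 8.52, a difference of -0.38 ± 0.09, and the pairs without PDGF-AA gave -0.72 and -0.39. The mucin-like surface protein Pdpn differed by 0.15 ± 0.06, and Dcn, Vim and Col1a1, abundant fibroblast genes, by 0.05 or less.

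The fibrosis genes gave no common direction. Of 23 fibrillar collagen and collagen-processing genes, 10 were higher and 13 lower, with a median of -0.01 and all differences between -0.12 and 0.15. Lox, which cross-links collagen, was higher in all 4 pairs at 0.14 ± 0.06. Of 36 other matrix genes, 22 were higher and 14 lower, with a median of 0.02. Without PDGF-AA 15 were higher and with it 28, while 2 of the 36 had an unadjusted p under 0.05 for the dose difference, against 8.81% of all clusters. Besides Col12a1 they included Hspg2, the basement membrane proteoglycan perlecan, at 0.15 ± 0.06, and Comp, cartilage oligomeric matrix protein, at -0.32 ± 0.10. Comp stood at 9.93, 10.30, 8.43 and 9.11 with control AMO and at 9.76, 9.85, 8.08 and 8.81 with pA AMO, lower in each pair, while the arrays of either AMO with PDGF-AA stood further below those without it.

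Of 20 myofibroblast and contractile genes, 14 were higher, with a median of 0.03. Acta2, smooth muscle actin, gave pair differences of -0.09, 0.45, 0.30 and 0.27, and the actin-binding genes Tpm1 and Tagln averaged 0.16 ± 0.07 and 0.21 ± 0.10; in all 3 the first replicate without PDGF-AA had the opposite sign. TGF-beta targets divided into 9 higher and 8 lower. Of 19 matrix proteases and inhibitors, 14 were higher, with a median of 0.07. Mmp11, stromelysin 3, averaged 0.20 ± 0.07 and was higher in 4 of 4 pairs, against the lower Mmp23.

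Cell cycle genes leaned higher. Of 44 measured, 38 were above 0 and 6 below, against 45.2% of all clusters above 0, with a median of 0.08 against -0.01. An unadjusted p under 0.05 was reached by 6 of the 44, all higher, against 3.19% of all clusters higher at that p, and 0 passed. The spindle assembly factor Tpx2 stood at 8.01, 7.71, 8.08 and 8.00 with control AMO and at 8.08, 8.19, 8.41 and 8.17 with pA AMO, a difference of 0.26 ± 0.08 (adjusted p = 0.590, limma). The proliferation marker Mki67 differed by 0.21 ± 0.08 and the replication helicase subunit Mcm5 by 0.16 ± 0.06. The median of the list was -0.09 in the first replicate without PDGF-AA and 0.22, 0.12 and 0.09 in the other pairs, so 1 of 4 pairs went the other way.

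Metabolic lists leaned in different directions. Of 17 glycolysis genes 15 were higher with a median of 0.04, led by Hk2, the inducible hexokinase, at 0.23 ± 0.07. Without PDGF-AA 15 of the 17 were higher and with it 10, and the second pair with PDGF-AA had a median of -0.03. For the dose difference 0 of the 17 had an unadjusted p under 0.05, against 8.81% of all clusters. Of 14 hypoxia-inducible genes 10 were higher with a median of 0.06, which was 0.14 without and 0.01 with PDGF-AA. Tested for the dose difference, 3 of the 14 had an unadjusted p under 0.05, against 8.81% of all clusters, and 0 passed. They include the mitochondrial proteins Higd1a at 0.28 ± 0.09 and Bnip3 at 0.17 ± 0.06. Of 20 cholesterol synthesis genes 13 were lower with a median of -0.05. Without PDGF-AA 1 of the 20 was higher (median -0.07) and with PDGF-AA 10 of 20 were (median 0.00). The difference between the doses reached an unadjusted p under 0.05 in 0 of the 20, against 8.81% of all clusters. Dhcr7, the last enzyme of the pathway, stood at 8.65, 8.70, 8.74 and 8.61 with control AMO and at 8.44, 8.49, 8.52 and 8.42 with pA AMO. The groups were apart, the pair differences lay between -0.22 and -0.19, and the average was -0.21 ± 0.06 (adjusted p = 0.570, limma). Mvd, an earlier enzyme of the pathway, differed by -0.21 ± 0.07, and Srebf2, its main transcription factor, by -0.13 ± 0.05 with all pA arrays below the control arrays.

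Of 26 adipocyte genes, 17 were lower and 9 higher with a median of -0.06. The pair medians were -0.06 and -0.13 without and 0.01 and -0.15 with PDGF-AA, so 1 pair went the other way. The mean level of the 4 defining adipocyte markers was higher with pA AMO in both pairs numbered replicate 1 (6.93 to 7.02 and 6.32 to 6.60) and lower in both numbered replicate 2 (7.99 to 7.78 and 7.77 to 7.54). Of the 26 genes 9 were lower in all 4 pairs, against 9.10% of all clusters, among them the regulators Pparg (-0.16), Cebpa (-0.15) and Cebpb (-0.11). Klf15, a transcription factor of adipocyte and glucocorticoid responses, stood at 7.28, 7.32, 7.50 and 7.60 with control AMO and at 7.15, 7.17, 7.23 and 7.24 with pA AMO, a difference of -0.23 ± 0.06 with no overlap. Hormone-sensitive lipase, Lipe, was at 7.85, 8.51, 7.65 and 8.24 against 7.74, 8.32, 7.35 and 8.01, lower by 0.21 ± 0.06. The replicate numbers differed more than the AMOs in Lipe, with replicate 2 higher in every group. Retn, the adipocyte hormone resistin, averaged -0.48 ± 0.15 with pair differences from -0.92 to -0.10. Cidec, a lipid droplet protein, went the other way at 0.25. Pparg, Cebpa, Cebpb and Cidec lie outside the naming rule, which takes up to 3 members of a list by smallest p. With RNA from whole cultures, fewer cells of a type and less RNA per cell cannot be told apart.

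Stress-related lists were small in their differences. Of 17 p53 targets 14 were higher, with a median of 0.07; Ccng1, cyclin G1, stood at 12.02, 11.99, 11.99 and 12.07 with control AMO and at 12.14, 12.14, 12.21 and 12.24 with pA AMO, apart by 0.16 ± 0.05. The unfolded protein response divided into 10 higher and 10 lower. The 24 genes of mRNA 3' end processing and the U1 particle, which recognises 5' splice sites and restrains early polyadenylation, divided into 12 and 12. Their median was 0.00, with 6 higher without PDGF-AA and 18 with it. For the dose difference 1 of these 24 had an unadjusted p under 0.05, against 8.81% of all clusters. Of 22 inflammatory genes 15 were higher, including Ptgs2, the inducible prostaglandin synthase, at 0.27 ± 0.07. Only 12 of the 22 lay above the dim mark, and the lower chemokine Ccl5 is not in this list. Complement factor Cfb and component C7 were lower by 0.23 ± 0.07 and 0.25 ± 0.10 in a list of 12 with 6 in each direction. The Wnt antagonist Sfrp2 was lower in all 4 pairs by 0.29 ± 0.08, in a list of 22 with a median of 0.01.

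**Figure D3:**
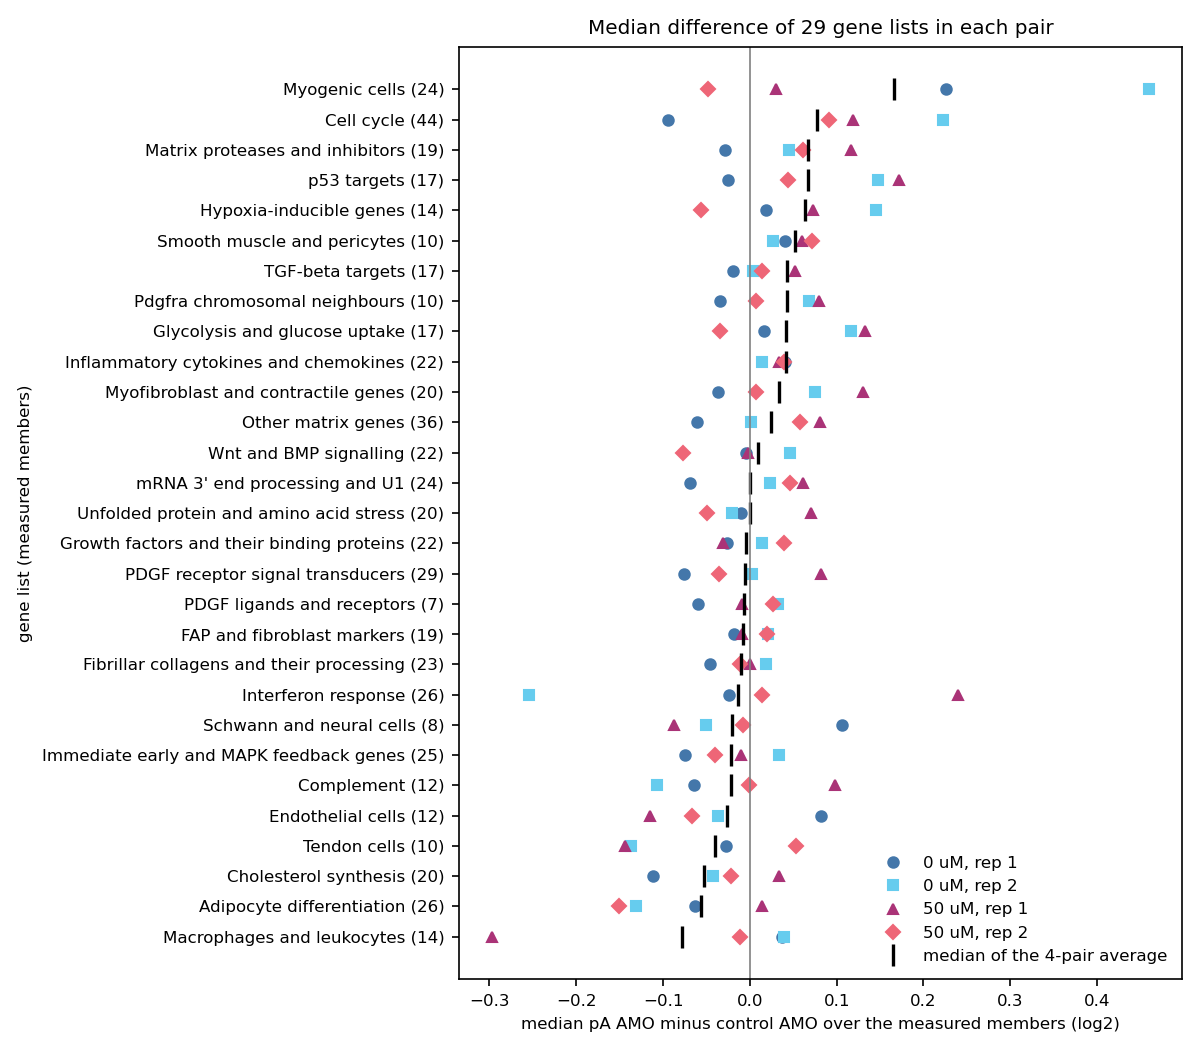
Median log2 difference between pA AMO and control AMO over the measured members (x axis) of each of the 29 gene lists (y axis, members in brackets). Coloured symbols are the 4 pairs and black bars the median of the average difference; the black bars lie between -0.08 and 0.17, and for most lists the pairs fall on both sides of 0.

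Of the 6 lists of other cell types, myogenic genes stood furthest from 0. Their median was 0.17, with 19 of 24 higher and 3 reaching an unadjusted p under 0.05, against 7.64% of all clusters. Without PDGF-AA the median was 0.35 and 9 of 24 reached it, against 4.78% of all clusters (1041). With PDGF-AA the median was 0.00 and 0 did, against 13.2% of all clusters. The difference between the doses itself reached an unadjusted p under 0.05 in 3 of the 24, against 8.81% of all clusters, and 0 passed. Ttn, the giant sarcomere protein titin, stood at 6.46, 5.77, 6.19 and 5.84 with control AMO and at 6.95, 6.41, 6.34 and 6.29 with pA AMO, a difference of 0.43 ± 0.11. The myosin heavy chains Myh8 and Myh1 differed by 0.47 ± 0.15 and 0.60 ± 0.22. The mean level of the 24 genes was 7.35, 6.60, 7.07 and 6.94 with control AMO and 7.58, 7.08, 7.11 and 6.91 with pA AMO, so the second control array without PDGF-AA was the lowest of the 8. That array lies in the pair with the largest difference, and the range among the control arrays alone exceeded the difference between AMOs.

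Endothelial genes had a median of -0.03, and Pecam1, the adhesion molecule of endothelial cells, differed by -0.20 ± 0.06 at a level under the dim mark. Of 14 macrophage and leukocyte genes 11 were lower, but 9 of the 14 lay under the dim mark, the defining genes Ptprc and Adgre1 among them. Smooth muscle and pericyte genes had a median of 0.05, tendon genes of -0.04 and Schwann and neural genes of -0.02. The part of other cells in the differences described was not tested.

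**Figure D4:**
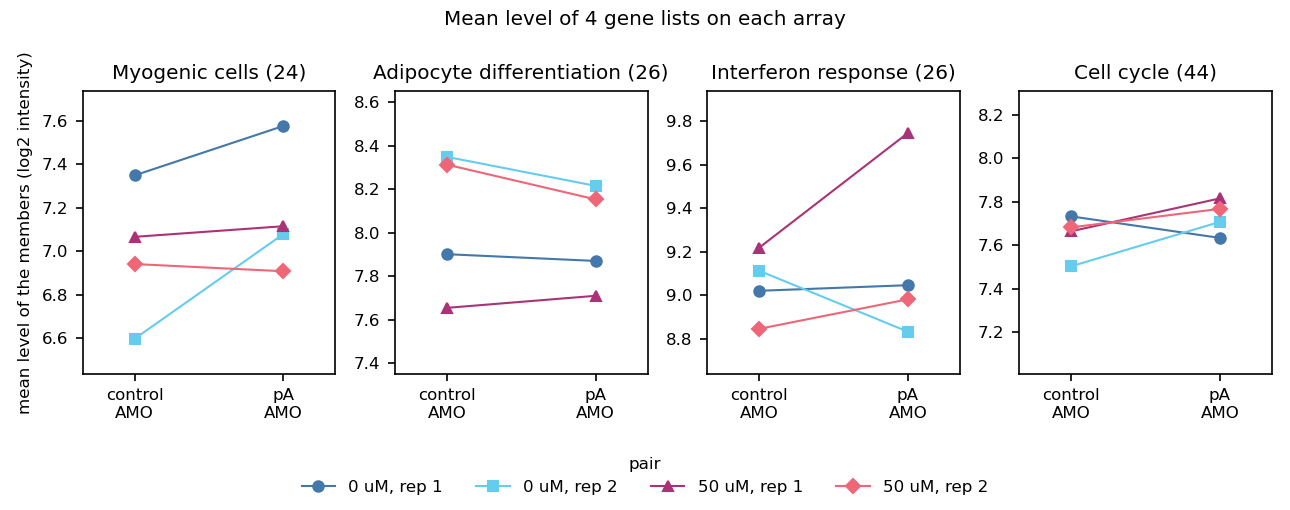
Mean log2 intensity of the members of 4 gene lists (y axis, every panel spanning 1.3 log2 units) on each array with control AMO and pA AMO (x axis), joined by pair. Adipocyte genes separate by replicate number, at 7.65 to 7.90 and 8.15 to 8.35; the interferon list has 1 high array, at 9.75, with pA AMO and PDGF-AA.

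At each dose separately 0 clusters passed, 0% both without and with PDGF-AA. The smallest adjusted p was 1 without PDGF-AA and 0.142 with it. An unadjusted p under 0.05 was reached by 1041 clusters (4.78%) without and by 2883 (13.2%) with PDGF-AA. The difference between the doses was tested itself: 0 clusters passed (0%), the smallest adjusted p was 0.478, and 1919 (8.81%) had an unadjusted p under 0.05. With trend and robust moderation 3 clusters passed without PDGF-AA (Akr1c18 and Cxcl14 higher, Fap lower) and 256 with it, 216 higher and 40 lower, 39 of them of Hmcn1. Under that moderation the difference between the doses itself passed in 0 clusters, with a smallest adjusted p of 0.0558 (limma).

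The clusters of smallest p in the test of the dose difference were Dennd4a, Stmn2, Txndc2 and Cenpq. Dennd4a, an exchange factor for Rab GTPases, stood at 7.48, 7.49, 6.78 and 6.90 with control AMO and at 7.23, 7.53, 7.55 and 7.65 with pA AMO. The control arrays with PDGF-AA were the low ones: the AMO difference was -0.10 without and 0.76 with PDGF-AA, 0.86 apart (adjusted p = 0.478, limma). Stmn2, a microtubule regulator of the stathmin family, stood at 6.45, 6.30, 6.10 and 5.93 with control AMO and at 6.20, 6.11, 6.59 and 6.73 with pA AMO. Its control arrays were lower with PDGF-AA and its pA arrays higher, so the AMO groups changed places between the doses. Cenpq, a kinetochore protein under the dim mark, differed by 0.00 without and 0.71 with PDGF-AA. Txndc2 went the other way, at 0.40 and -0.31, also under the dim mark.

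Without PDGF-AA the 4 clusters of smallest p were Bex4 (-0.51), Gemin8 (0.46), Pdha2 (-0.51) and Vav1 (0.50), and each lay under the dim mark. With PDGF-AA the leading clusters were Dennd4a, Cenpq and 2 of Hmcn1, at 0.97 and 0.78. Igf1, the growth factor IGF-1, stood at 9.96, 9.66, 9.01 and 8.81 with control AMO and at 9.71, 9.71, 9.41 and 9.32 with pA AMO. Its difference was -0.10 without and 0.46 with PDGF-AA; the control arrays with PDGF-AA were the lowest, and the pA arrays with PDGF-AA lay between those and the arrays without it.

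Interferon-response genes had a median of -0.15 without PDGF-AA, with 4 of 26 higher, and of 0.10 with PDGF-AA, with 18 of 26 higher. In the test of the dose difference 7 of 26 reached an unadjusted p under 0.05, against 8.81% of all clusters, and 0 passed. Cxcl10, Mx1 and Rsad2 are named here after their values were seen. The chemokine Cxcl10 stood at 7.80, 7.93, 7.61 and 7.18 with control AMO and at 7.95, 7.53, 10.61 and 8.33 with pA AMO, so that both pA arrays with PDGF-AA were high and the first by far the highest. The difference of Cxcl10 was -0.12 without and 2.08 ± 0.47 with PDGF-AA (adjusted p = 0.236, limma). The antiviral GTPase Mx1 had pair differences of 0.32 and -0.57 without and of 2.30 and 1.01 with PDGF-AA, and the antiviral enzyme Rsad2 of 0.19 and -0.57, then 1.51 and 1.18. Ifit2, an RNA-binding interferon-induced protein, gave 0.11, -0.02, 1.85 and 0.42.

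Other members of the same list did not share this. Irf7, an interferon regulatory factor, was lower in all 4 pairs at -0.33 ± 0.15, and so was the antiviral membrane protein Bst2 at -0.24 ± 0.11. Ifnb1, the interferon beta gene, lay under the dim mark and differed by -0.02. When the second pA array with PDGF-AA was left out, Ifit2 and Cxcl10 passed both in the comparison with PDGF-AA and in the dose difference; these rest on the first pA array with PDGF-AA, which then stands alone.

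**Figure D5:**
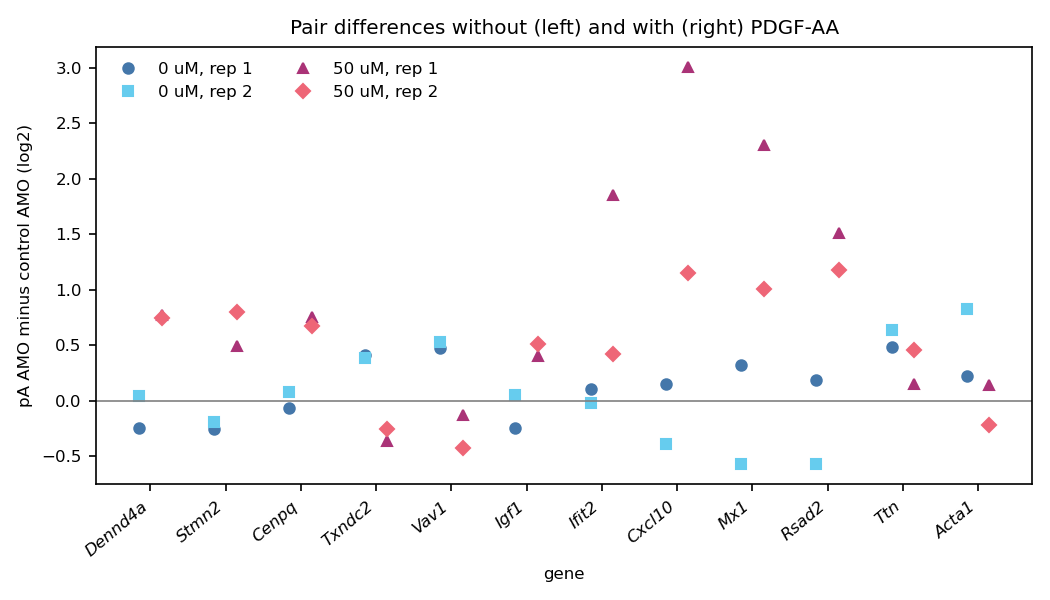
Difference between pA AMO and control AMO in log2 units (y axis) for 12 genes (x axis), with the pairs without PDGF-AA drawn left and those with it right of each tick. Dennd4a, Stmn2 and Cenpq lie near or under 0 without and between 0.49 and 0.80 with PDGF-AA, while for Cxcl10 the pairs with PDGF-AA are 3.01 and 1.15, far from each other.

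Against the 5'ss AMO, the other AMO directed at Pdgfra, pA AMO differed in 6 of 21789 clusters (0.0275%) at an adjusted p of 0.05, fitted over all 12 arrays. These were Tgfbi, Has2, Gfra1, Cxcl13 and Comp, which were lower with pA AMO, and Kng2, which was higher; of them the naming rule picks Comp and the others are named after their values were seen. Comp differed from control by -0.32 under pA AMO and by 0.66 under 5'ss AMO, and the AMOs from each other by -0.98 ± 0.11 (adjusted p = 0.035, limma). Comp no longer passed without the replicate block (adjusted p = 0.846, limma), over all transcript clusters (0.346) or with repeated quantile normalization (0.0689). It also did not pass in 7 of 8 fits with an array left out, at adjusted p of 0.0553 to 0.257, the exception being the fit without the first pA array at 0 uM (0.0489); its difference in these 8 fits was -1.09 to -0.87. Kng2 was the 1 cluster left over all transcript clusters, with repeated quantile normalization and in 6 of the 8 fits. The arrays left out were those of pA and control AMO, so these fits do not show how far the result rests on the 5'ss arrays. Control arrays do not enter this difference, which for Comp stayed at -0.98 when any 1 of them was left out. Without the replicate block 0 clusters passed, and 1855 had an unadjusted p under 0.05 with it.

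For the genes that lead the comparison with control, none passed the test of pA against 5'ss AMO, and both comparisons with control share the control arrays. Akr1c18 was 0.44 above control with pA AMO and 0.02 above it with 5'ss AMO, a difference of 0.41 ± 0.06 (adjusted p = 0.118, limma). It passed in this comparison when only clusters above the dim mark were tested. Efs was at -0.33 and -0.06 and Siae at -0.36 and -0.09. Cxcl14 was at 0.37 and 0.40, Col12a1 at 0.33 and 0.29, and Apod at -0.39 and -0.37. Ccl5 was at -0.48 under pA AMO and -0.80 under 5'ss AMO, and Agrn at -0.34 and -0.46. For Pdgfra the values were 0.01 and 0.13, and the AMOs differed by -0.12 ± 0.05 (adjusted p = 0.557, limma).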

How the data were processed

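The deposited log2 values were made by RMA (Affymetrix Expression Console, no version stated), per the submitters' processing notes; scanner files were not used here, and the genome build is not given in the sources used here. RMA corrects background, quantile-normalizes arrays together and summarises probes, so a shift of all genes would be removed. The number of arrays limits the precision.

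Symbols came from the platform annotation: 21789 clusters (19938 genes) have 1, 1621 several and 12146 none listed; 21698 matched RefSeq gene names (GRCm38.p6). The 8 arrays were fitted with limma 3.58.1 (R 4.3.3) as AMO, dose and replicate block (4 residual degrees of freedom); doses used 4 group means with the block (3), and 5'ss AMO all 12 arrays (5). Benjamini-Hochberg adjustment ran over these 21789 clusters, with 0.05 as the threshold; scripts were tested on simulated data. Same-numbered arrays deviated together from their group means (r = 0.35 to 0.61 across clusters in 6 of 6 pairs of groups), a hint from the data that the numbers pair the samples. Named are the PDGF genes, the 12 clusters of smallest p per direction with 1 sign in 4 pairs above the dim mark, up to 3 per list and 4 per dose test, leaving out unnamed genes and small RNAs. Some list members outside this rule are named too, among them Dcn, Vim, Col1a1, Pparg, Cebpa, Cebpb, Cidec and Ifnb1. The comparison, the 29 lists and the rules were chosen with earlier results of these data known. A gene with several clusters entered a list by its brightest.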

Additional observations from a re-analysis of the deposited data

Results flagged for a closer look

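In 2 lists every pair without PDGF-AA had a median on one side of 0 and every pair with PDGF-AA on the other. The difference between doses was not tested for the lists as such. Interferon-response genes had pair medians of -0.02365 and -0.25413 without PDGF-AA (replicates 1 and 2) and of 0.24007 and 0.01401 with it. Macrophage and leukocyte genes had pair medians of 0.036815 and 0.039715 without PDGF-AA and of -0.29732 and -0.01165 with it. In both lists 1 of the pairs with PDGF-AA lay close to 0, and most macrophage and leukocyte genes were dim.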

How the results depend on the processing

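The count of clusters that differed between pA and control AMO was 0 for the average over doses in every setting tried (other arrays in the fit, filters, normalizations, weights, arrays left out) except trend and robust moderation, which gave 44 (3 without PDGF-AA and 256 with it). With PDGF-AA it was also 8 among clusters above the dim mark, and 0 to 2 with an array left out, as was the dose difference. Under trend and robust moderation the dose difference passed in 0 clusters. Without the replicate block the average count stayed at 0, with 759 clusters at an unadjusted p under 0.05 in place of 1665. The count against 5'ss AMO was 6, and 0 without the replicate block, 14 above the dim mark, 1 over all clusters, 1 with repeated quantile normalization, 158 with trend and robust moderation and 1 to 2 with an array left out. The cause of these changes was not tested, and no 5'ss array was among those left out. With an array left out, the average difference ran from -0.0002875 to 0.0203 for Pdgfra, from -0.0623 to 0.0492 for Pdgfrb and from -0.0447 to 0.0344 for Pdgfa, with both signs; of 129 single-gene results no other changed sign. Of the list medians, 10 of 232 moved by more than the SD of their 4 pair medians with an array left out, and 1 of 261 in the other settings; they belong to the inflammatory, TGF-beta and smooth muscle lists. The inflammatory median went to -0.01 without the second control array with PDGF-AA, and the TGF-beta median to -0.03 without the first pA array with PDGF-AA. With 2 arrays a group, and 1 where an array was left out, a lone array is assumed to vary like the others. The number of arrays limits which differences can be seen.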

Other observations

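Genes outside the lists and the naming rule include several that passed with trend and robust moderation and are given here after their values were seen. Prdx1, a peroxide-reducing enzyme, was higher with pA AMO by 0.28 in its cluster of smallest p (adjusted p = 0.00197, limma with that moderation), and P2rx4, an ATP-gated ion channel, by 0.26 (adjusted p = 0.0152). Lrp1, an endocytic receptor, was higher by 0.17 (adjusted p = 0.0343) and Tapbp, a chaperone of MHC class I loading, lower by 0.23 (adjusted p = 0.0178). Prdx1 has close copies in the genome whose probes may not be separable.

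The 4 pair differences were weakly related to each other across clusters, at correlations between -0.28 and 0.27. The lowest was between the pairs numbered replicate 1 at the 2 doses and the highest between the 2 pairs with PDGF-AA; no pairs share an array. The spread of the pair difference over clusters (SD) was 0.17, 0.18, 0.24 and 0.19, widest for replicate 1 with PDGF-AA.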
